A study of Homo sapiens with 8 samples.

Results

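A set of 10 genes of the cell's peroxide and superoxide defence, PRDX1, PRDX2, PRDX3, PRDX5, PRDX6, TXN, TXNRD1, GPX1, GPX4 and SOD1, were followed in a ribosome profiling study of THP-1, a human monocytic leukaemia line. They were chosen by name, and all 10 of 10 had a row among the 9339 genes of the authors' deposited table. The study compared THP-1 cells in which ALKBH5 was knocked down (written A5-KD in the labels) with control cells, and sequenced ribosome footprints and input RNA from each, with 2 libraries in each of 4 groups and 8 in all. ALKBH5 is an RNA demethylase that acts on N6-methyladenosine (m6A). The labels do not give the means of the knockdown, whether 1 or several clones were used, or whether the 2 replicates came from separate cultures, so the errors may be technical. The control input libraries are control by their titles alone. The readout is the change between conditions in translational efficiency, which is footprint abundance relative to input RNA.

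Superoxide dismutases turn superoxide into hydrogen peroxide, which peroxiredoxins and glutathione peroxidases then reduce. Peroxiredoxins do this with a reactive cysteine that most of them have restored by thioredoxin, and thioredoxin is restored by thioredoxin reductase at the expense of NADPH. Glutathione peroxidases draw on glutathione instead. GPX1, GPX4 and TXNRD1 are selenoproteins, whose mRNAs have a UGA codon read as selenocysteine, so their translation needs a dedicated elongation factor and an RNA element in the mRNA. In phagocytic cells the same enzymes also limit the oxidants made by the NADPH oxidase.

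The table holds 0 columns of values per library, so a member is described by its mean signal over all 8 libraries, its log2 fold change of translational efficiency, the standard error (SE) of that change and its p. Which condition served as reference is not stated, so a negative value cannot be read as lower or higher efficiency in the knockdown, and only the deposited sign is used. Depth per library is unknown here. Mean signal is not divided by transcript length and serves only as a measure of how much data a gene had. Of 12 measured monocytic markers (of 14 listed), the lysozyme gene LYZ had a mean signal of 2942 and FCER1G, a signalling chain of Fc receptors, 509.3 in the authors' deposited table. CD14 and MPO, also listed, had no row there. Of the 12, only 5 had a mean signal of at least 100. Those of lowest signal were ITGAM (4.55), CSF1R (10.9), CEBPA (18.1), CD33 (22.4), PTPRC (28.0) and SPI1 (41.4). The Fc receptor gene FCGR2A was the 1 marker called by the riborex test of the authors' deposited table (DESeq2 engine), with -0.80 ± 0.17 on the log2 scale (adjusted p = 4.0e-04) at mean signal 112772, the highest of all 9339 genes. The mean signals of all genes sum to 713523. Which reads gave FCGR2A so large a part was not tested, so its change is not read as that of a monocytic marker. Of the other lists, 2 of 15 erythroid, 2 of 13 lymphoid and 1 of 10 epithelial or fibroblast markers were measured, and no globin gene was among them. The only one of these 5 with a mean signal above 100 was CA2, a carbonic anhydrase, at 1749 in the authors' deposited table. ALKBH5 itself had a log2 change in efficiency of 1.94 ± 2.30 (SE) at mean signal 4.85 in the authors' deposited table, a value that says nothing of how far its RNA was reduced.

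None of the 10 genes passed the test. With the authors' riborex test (DESeq2 engine), 0 of the 8 members with an adjusted p were under 0.05, against 1.54% of the 648 genes with one. At an unadjusted p under 0.05 there were also 0 of 10 members, against 0.707% of all 9339 genes and 8.80% of the 648. With so few members, 0 calls is near the background. The other 2 members, PRDX6 and TXNRD1, received no adjusted p: every gene with one had a mean signal of at least 155.3, and both lay below that. By deposited sign 5 of the 10 members were negative and 5 positive, and their median log2 fold change was -0.01, beside -0.02 over all genes and -0.12 over the 648. In the deposited values the peroxiredoxins, glutathione peroxidases and SOD1 stayed between -0.10 and 0.15. Only the thioredoxin pair, TXN and TXNRD1, lay further from 0 there.

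**Figure D1:**
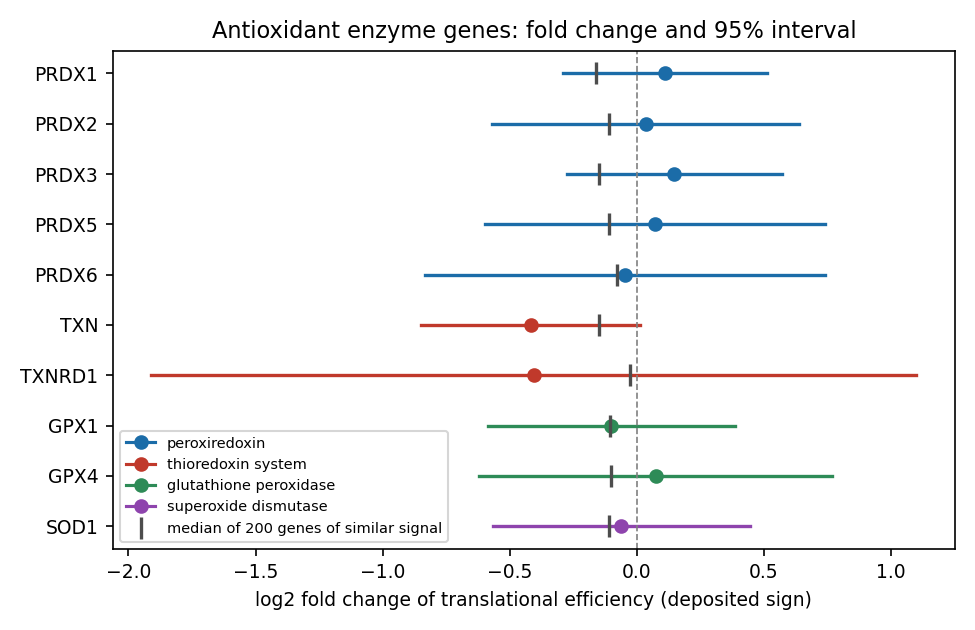
Log2 fold change of translational efficiency (horizontal axis, deposited sign) of the 10 antioxidant enzyme genes as points, with lines for 95% intervals computed from the deposited standard errors and grey ticks for the median of the 200 genes nearest in mean signal. All 10 intervals hold 0, and the TXN interval reaches 0.01 at its upper end.

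Among the peroxiredoxins 4 of 5 changes were positive and 1 negative, and all 5 were small. PRDX1 is a cytosolic peroxiredoxin, and PRDX3 is its mitochondrial relative. In the authors' deposited table PRDX1 had a log2 change in efficiency of 0.11 ± 0.20 (SE) at mean signal 583.6 (adjusted p = 0.999), which is 1.08 as a ratio. PRDX3 had 0.15 ± 0.22 at mean signal 506.6 (adjusted p = 0.999), which is 1.11 as a ratio, in the authors' deposited table. These are the best measured members of the family. The 95% interval of the ratio ran from 0.818 to 1.43 for PRDX1 and from 0.826 to 1.49 for PRDX3, so a change of 1.5-fold or more in either direction lies outside both.

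PRDX2, a second cytosolic enzyme that is abundant in red blood cells, had a log2 change in efficiency of 0.04 ± 0.31 at mean signal 261.8 (adjusted p = 0.999) in the authors' deposited table. PRDX5, which is found in mitochondria, peroxisomes and cytosol, had 0.07 ± 0.34 at mean signal 260.4 (adjusted p = 0.999) in the authors' deposited table. PRDX6, which uses a single catalytic cysteine, takes its electrons from glutathione and also has phospholipase activity, had -0.05 ± 0.40 at mean signal 129.7 (unadjusted p = 0.91) in the authors' deposited table. Their ratios were 1.02, 1.05 and 0.968, with 95% intervals from 0.674 to 1.56, 0.661 to 1.67 and 0.561 to 1.67. These intervals hold a ratio of 1.5 and leave out changes of 2-fold. In the other direction, a 1.5-fold change lies within the intervals of PRDX5 and PRDX6 and just outside that of PRDX2.

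TXN, the cytosolic thioredoxin, had the largest log2 fold change in size and the smallest p of the 10. In the authors' deposited table its mean signal was 468.9 and its log2 change in efficiency -0.42 ± 0.22 (unadjusted p = 0.057, adjusted p = 0.57). This is a ratio of 0.749 between conditions, with a 95% interval from 0.556 to 1.01. Of the 200 genes nearest to TXN in mean signal, 20 had a lower fold change, and their median was -0.15. TXN was thus in the lower tail of genes measured with like signal, without passing the test. TXNRD1, the cytosolic thioredoxin reductase, had a similar log2 fold change of -0.41 but with an SE of 0.77 at a mean signal of 35.1 in the authors' deposited table (unadjusted p = 0.60). Its 95% interval for the ratio ran from 0.266 to 2.14, and it was the 1 member whose interval reached beyond 2-fold. The TXN and TXNRD1 changes differed by -0.01, with a 95% interval of the difference from -1.58 to 1.55.

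TXN has 7 annotated pseudogenes, the most of any member, and TXNP5 among them has a row of its own. In the authors' deposited table TXNP5 had a log2 change in efficiency of 8.36 ± 2.20 at mean signal 31.1 (unadjusted p = 1.5e-04), the highest fold change of all 9339 genes and opposite in sign to TXN. The table gives it no adjusted p. With the deposited riborex (DESeq2 engine) p-values adjusted over all genes by Benjamini-Hochberg it did not pass (adjusted p = 0.17). Its mean signal was 6.63% of that of TXN. If all of it had been in 1 of the 4 groups, the mean there would have been 124.3 per library. That is 26.5% of the mean signal of TXN over all 8 libraries, and the mean of TXN in such a group is unknown. No source used here says how reads shared by the gene and its copy were assigned, and the part of TXNP5 in the TXN value was not tested. Of all genes, 14 had a fold change of at least 3 log2 units in either direction, and 3 of these, TXNP5 included, were annotated as pseudogenes, beside 1.42% of the whole table. Names without a match in the annotation were counted as not pseudogenes, so both counts may be too low. The whole table is also not a set of genes of like signal.

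**Figure D2:**
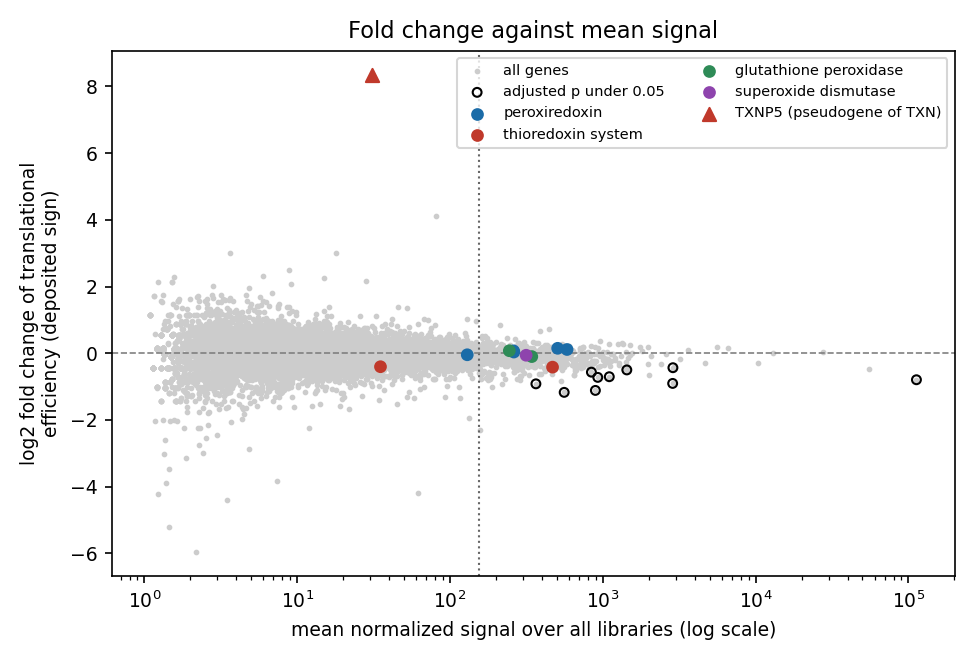
Log2 fold change of translational efficiency (vertical axis, deposited sign) against mean normalized signal (horizontal log axis) for all 9339 genes in grey, with the 10 called genes circled, the 10 antioxidant genes in colour and TXNP5 as a triangle. The dotted line marks the lowest signal with an adjusted p, 155.3, and TXNP5 stands alone at 8.36 while TXN lies at -0.42.

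The glutathione peroxidases were close to 0 and of opposite sign. GPX1, which reduces hydrogen peroxide in cytosol and mitochondria, had a log2 change in efficiency of -0.10 ± 0.25 at mean signal 343.0 (adjusted p = 0.999) in the authors' deposited table. GPX4, which reduces lipid hydroperoxides in membranes and restrains ferroptosis, had 0.07 ± 0.35 at mean signal 244.6 (adjusted p = 0.999) in the authors' deposited table. The ratios were 0.933, with a 95% interval from 0.666 to 1.31, and 1.05, from 0.651 to 1.70. SOD1, the copper and zinc superoxide dismutase, had a log2 change in efficiency of -0.06 ± 0.26 at mean signal 315.1 (adjusted p = 0.999) in the authors' deposited table, a ratio of 0.959 with a 95% interval from 0.676 to 1.36. The interval of SOD1, like those of PRDX1 and PRDX3, lay within 1.5-fold in both directions.

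The members could not be told apart from each other. For each of the 45 pairs the difference of log2 fold changes was computed with a 95% interval from both deposited SE, taken as independent although all genes share the same libraries. All 45 intervals held 0. The widest gap was between PRDX3 and TXN, 0.57 with an interval from -0.04 to 1.17. Next came PRDX3 and TXNRD1, 0.55 from -1.01 to 2.12, and PRDX1 and TXN, 0.53 from -0.06 to 1.12.

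Genes of higher signal had mostly negative fold changes in this table, 68.4% of the 648 with an adjusted p against 51.9% of all genes. Beside the 200 genes nearest in signal, 8 of the 10 members were above their neighbours' median and 2, TXN and TXNRD1, below it. PRDX3 was higher than 180 of its 200 neighbours and PRDX1 than 173, GPX4 was higher than 162, PRDX5 than 161 and PRDX2 than 148. SOD1, PRDX6 and GPX1 stood near the middle, above 122, 112 and 102 of 200. TXNRD1 was above 19 of its 200 neighbours. These positions are descriptions and were not tested, and neighbours of members with like signal are partly the same genes.

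The precision of each value followed its signal. The SE fell from 0.77 for TXNRD1 to 0.20 for PRDX1, and 8 of the 10 members had a smaller SE than the median of their 200 neighbours. The exceptions were GPX4, with 0.35 against 0.32, and PRDX5, with 0.34 against 0.31, in the authors' deposited table. The smallest Wald statistic among the 10 called genes was 3.39 in size. At their own SE, members would have needed a change of 1.62-fold (PRDX1), 1.66-fold (PRDX3), 1.68-fold (TXN), 1.79-fold (GPX1), 1.83-fold (SOD1), 2.06-fold (PRDX2), 2.23-fold (PRDX5) or 2.30-fold (GPX4) to reach that size. For PRDX6 and TXNRD1 the same statistic corresponds to 2.57-fold and 6.08-fold. Smaller changes would not have reached the size of the called genes.

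**Figure D3:**
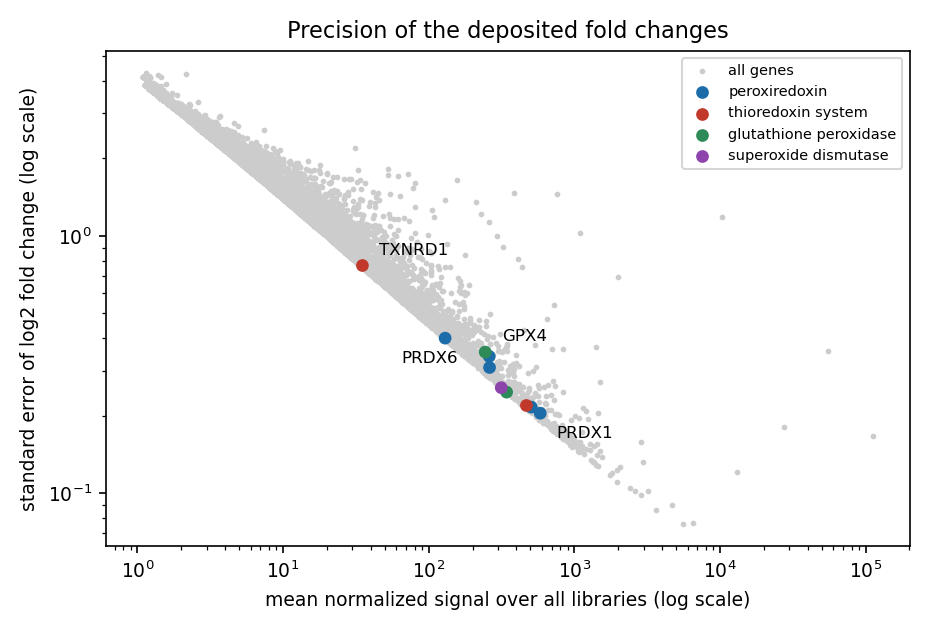
Standard error of the log2 fold change (vertical log axis) against mean normalized signal (horizontal log axis) for all genes in grey and the 10 antioxidant genes in colour. The members run from TXNRD1, with a standard error of 0.77 at a signal of 35.1, to PRDX1, with 0.20 at 583.6.

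In the annotation most of the members have copies or overlapping genes, though few of these had a row. In GRCh38.p14, 7 of the 10 have annotated pseudogenes named for them, 22 in all, and PRDX6, TXNRD1 and GPX4 have none. Of the 22, TXNP5 and GPX1P1 had a row. GPX1P1 had a log2 change in efficiency of -0.44 ± 2.59 at mean signal 3.66 in the authors' deposited table, 1.07% of the signal of GPX1. PRDX5 overlaps TRMT112, a partner of RNA and protein methyltransferases, which had a log2 change in efficiency of -0.40 ± 0.40 at mean signal 146.6 in the authors' deposited table. PRDX1 overlaps MMACHC, a vitamin B12 handling gene with a mean signal of 5.68 there. TXNRD1 overlaps EID3, an antisense RNA and a ribosomal protein pseudogene, and a predicted snoRNA and a lncRNA overlap the span of SOD1. A lncRNA overlaps the span of PRDX6. No overlapping gene of TXNRD1, SOD1 or PRDX6 had a row under its current name. Overlaps were found from whole-gene spans, and overlap of exons was not checked. No source used here says whether counting used strand, so whether overlapping genes shared reads is not known.

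The spans of the members, 1-based in GRCh38.p14 and covering the whole gene with exons and introns, are as follows. PRDX1 lies on chromosome 1 from 45511051 to 45522890 and PRDX6 on chromosome 1 from 173477335 to 173488815. PRDX2 lies on chromosome 19 from 12796823 to 12801800 and GPX4 on chromosome 19 from 1103994 to 1106779. PRDX3 is on chromosome 10 (119167720 to 119178812), PRDX5 on chromosome 11 (64318121 to 64321811) and TXN on chromosome 9 (110243810 to 110256507). TXNRD1 is on chromosome 12 (104215779 to 104350307), GPX1 on chromosome 3 (49357176 to 49358353) and SOD1 on chromosome 21 (31659693 to 31668931).

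Related antioxidant genes were taken from 10 lists. Of 114 related genes, 93 had a row and 17 an adjusted p, and 0 of the 17 passed (riborex, DESeq2 engine), beside 1.54% of the 648 genes with one. At an unadjusted p under 0.05 there were 0 of 93, beside 0.707% of all genes. Both counts are near the background. By sign 50 were negative and 43 positive. Their log2 fold changes had quartiles of -0.18 and 0.18 around a median of -0.01, beside -0.02 over all genes. The lowest adjusted p in these lists was 0.90, for FTH1.

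The other thioredoxin-fold and peroxiredoxin-cycle genes lay on both sides of 0. Of 18 measured thioredoxin and glutaredoxin genes 11 were negative and 7 positive (median -0.02). TXNIP, which binds and inhibits thioredoxin, had 0.35 ± 0.38 on the log2 scale, and TXNDC17, a small thioredoxin-like protein, -0.27 ± 0.38, in the authors' deposited table (both adjusted p = 0.999). TXN2, the mitochondrial thioredoxin, had -0.08 ± 0.51 at a mean signal of 143.9 in the authors' deposited table, nearer to 0 than TXN but with a wide error. PRDX4, the peroxiredoxin of the endoplasmic reticulum and not one of the 10, had -0.23 ± 0.37 in the authors' deposited table. The sestrins SESN3 and SESN1 had mean signals of 8.04 and 3.25 there, too low to say anything of their change.

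Glutathione genes were mostly negative by sign and NADPH supply genes mostly positive, with 0 called among the 4 and 3 genes of these lists that had an adjusted p. Of 20 glutathione genes 14 were negative (70.0%), with a median of -0.06. Over all genes 51.9% were negative, and of the 648 genes with an adjusted p 68.4% were. GSTP1, a glutathione transferase, had 0.11 ± 0.26, the membrane-bound transferase MGST1 -0.24 ± 0.29 and GLO1, which clears methylglyoxal with glutathione, 0.26 ± 0.34 in the authors' deposited table. Of 10 genes that supply NADPH 8 were positive, and their log2 fold changes had quartiles of 0.09 and 0.28 around a median of 0.24. Mitochondrial isocitrate dehydrogenase IDH2 had 0.26 ± 0.47, the pentose phosphate enzymes TALDO1 and PGD 0.29 ± 0.34 and 0.19 ± 0.37, in the authors' deposited table. The lowest unadjusted p among the 10 was 0.39, so each of these values lies within its error.

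Among other enzymes that remove oxidants, PARK7, a redox-sensitive chaperone-like protein, had -0.31 ± 0.23 (adjusted p = 0.94), catalase (CAT) 0.19 ± 0.34 and the mitochondrial dismutase SOD2 -0.33 ± 0.86 in the authors' deposited table. SOD1 and SOD2 could not be compared closely, since SOD2 had a mean signal of 28.1 in the authors' deposited table. Of 4 methionine sulfoxide reductases 3 were negative, led in signal by MSRB1 at -0.32 ± 0.49, with MSRB2 at 0.20 ± 1.16 and MSRA at -1.01 ± 2.02 in the authors' deposited table. Of 11 genes of the axis of NRF2, the transcription factor that induces many antioxidant genes, 6 were negative and 5 positive. The ferritin light chain FTL, with a mean signal of 13019, had -0.002 ± 0.12, a 95% interval from -0.24 to 0.24, the ferritin heavy chain FTH1 0.29 ± 0.20 and the NRF2 inhibitor KEAP1 0.25 ± 0.69 in the authors' deposited table.

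Of the selenoproteins outside the 10 genes, 12 were measured and 1, SELENOF, had an adjusted p, so the others could not be called. Of the 12, 7 were negative and 5 positive (median -0.08). SELENOF had -0.12 ± 0.32 (adjusted p = 0.999), SELENOK -0.39 ± 0.48 and SELENOW -0.36 ± 0.53 in the authors' deposited table. Of the 6 measured genes for selenocysteine synthesis and insertion 4 were positive, and none had a mean signal above that of SEPHS2, 56.8. SEPHS2, which makes the selenium donor, had 0.06 ± 0.63, its relative SEPHS1 0.19 ± 1.15 and TRNAU1AP -0.17 ± 1.20 in the authors' deposited table. The NADPH oxidase genes, on the side of oxidant production, had 4 positive and 3 negative of 7, with a median of 0.08. CYBA, its membrane subunit p22phox, had 0.08 ± 0.30, and the small GTPases RAC1 and RAC2 -0.18 ± 0.31 and 0.14 ± 0.47, in the authors' deposited table.

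**Figure D4:**
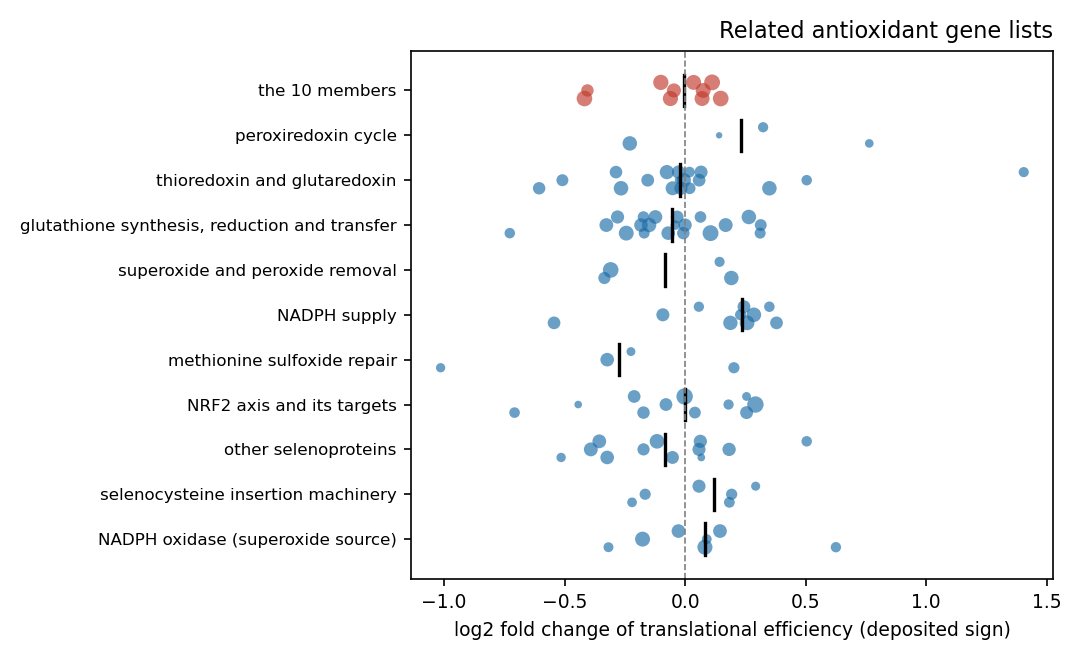
Log2 fold change of translational efficiency (horizontal axis, deposited sign) of the 10 antioxidant enzyme genes in red and of the measured genes of 10 related lists in blue, 1 point per gene, larger points for higher mean signal and black bars for medians. The points of every list lie on both sides of 0, and the median of the NADPH supply list is 0.24.

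The annotated starts of the members were searched for a pyrimidine tract, a feature of ribosomal protein mRNAs that ties their translation to growth signals. The rule asked for a C at the first base followed by at least 4 bases that are each C or T, on the gene's strand, in RefSeq starts of GRCh38.p14. Starts were found for 7 of the 10 members, 11 in all, and 1 of the 11, a start of PRDX5, matched the rule. Over all genes of the table with a listed start the share was 5.55% of 10810 starts, and over cytosolic ribosomal protein genes 57.6% of 85. A match is a description of the annotation, and annotated starts can be off by some bases.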

How the data were processed

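Groups of the 8 THP-1 libraries came from the sample titles. The authors deposited 1 table for the whole series, a riborex result by its name. Mean signal (baseMean per the file headers), the log2 fold change of translational efficiency with its standard error, the Wald statistic (a score), the p-value and the adjusted p-value are the authors' deposited values. HISAT2 2.1.0, kallisto, CASAVA and the build hg38 appear in the submitters' processing notes, with no role for each. No source used here gives the unit that entered the model. The statistic, p-value and Benjamini-Hochberg adjustment were checked against the other columns and agreed to rounding.

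With Python 3.11.15, pandas 2.3.3 and scipy 1.17.1, 95% intervals (normal), ratios, differences between members, the 200 genes nearest in mean signal and counts per list were computed. Intervals cover only the deposited error. Names, positions and pseudogenes came from RefSeq tables of GRCh38.p14. List genes were matched by current or unambiguous older name. The p-values, their adjustment and the intervals were tested on values simulated from the deposited errors, and the choice of neighbours on a simple example. Name matching, list counts and the searches for copies, overlaps and starts were not tested in this way. Named genes were the 10 members, ALKBH5, the 3 of highest signal in each related list and the monocytic list, and any called. CA2, the monocytic markers of lowest signal, CD14 and MPO were named outside this rule. Copies and overlapping genes were named after their values were seen. The members, lists and rules were chosen with earlier results of these data known. Alternatives were adjustment over all genes, a minimum mean signal of 100 and 2 ways of centring. Nothing could be refitted, since values per library were not analysed here.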

Additional observations from a re-analysis of the deposited data

How the results depend on the processing

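The count of called members stayed at 0, and that of called related genes at 0, with the adjustment over all 9339 genes, over the 972 genes whose mean signal reached 100 (9 members, without TXNRD1), after centring on the median of all genes and after centring on the 200 genes of similar signal. The adjustments over 9339 and 972 genes could not add a call, since an adjusted p is never below its unadjusted p. The lowest unadjusted p (riborex, DESeq2 engine) was 0.057 among members and 0.14 among related genes. The lowest adjusted p of a member (recomputed from the deposited values) was 0.57, for TXN, as deposited, 0.81 for TXN with the signal minimum, 0.68 for TXN after centring on all genes, and above 0.99 in the other cases. The median log2 fold change of the members ranged from -0.01 as deposited to 0.10 after centring on genes of similar signal. That centring turned the sign of PRDX6 (log2 fold change 0.031), GPX1 (0.0042) and SOD1 (0.047), each far within its error, and left 2 of 10 members negative. It also put PRDX3 (0.30) and PRDX1 (0.27) at least as far from 0 as TXN (-0.27). In the whole table it gave 12 calls, 6 negative and 6 positive, in place of 10, all negative. No paired analysis was possible because the table holds no values per library, and for the same reason no replicate could be left out. Low signal limits TXNRD1 and PRDX6 most.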
